A study of Brassica napus with 6 samples.

Results

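Among the 3248 genes that the authors listed as different between the silique walls of long-silique and short-silique rapeseed (Brassica napus), 4 are copies of the flowering genes FLC, FT, CO and SOC1. They were taken by their gene IDs, which are BnaC09g46540D for FLC, BnaC02g45250D for FT, BnaA10g18430D for CO and BnaA04g26320D for SOC1. Each is the only listed gene assigned to its Arabidopsis locus, and further copies of these genes were not analysed here. Reads that map equally well to several copies were left out by the authors, so how the reads of near-identical copies fell to each is uncertain. The long libraries came from a pool of walls of 12 long-silique accessions and the short libraries from a pool of 11 short-silique accessions, all lines of an association population sampled 15 days after flowering, with 3 libraries per pool. The pooled tissue was mixed before sequencing, so a value is an average over accessions, and the labels name neither the accessions nor their growth type (winter, semi-winter or spring). Whether the 3 libraries of a pool trace back to different plants is not stated in the labels, and the p-values below therefore cover only library-to-library spread, which may be technical.

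FLC is a MADS-box transcription factor that represses flowering, and prolonged cold silences it, which is how vernalization permits flowering in the Brassica family. In Arabidopsis FLC represses FT and SOC1, whereas CO, a zinc finger protein stabilized in light, activates FT in long days. FT is the mobile florigen protein made in leaves, and SOC1 is a MADS-box transcription factor that passes its signal on at the shoot tip. Rapeseed carries several copies of each gene in its A and C subgenomes, and winter and spring types differ in how strongly they depend on vernalization.

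In the walls of the long pool FLC and FT were lower and CO and SOC1 were higher than in the short pool. All 4 genes passed the test (edgeR quasi-likelihood, Benjamini-Hochberg adjusted p of at most 0.05 and p of at most 0.005), as did 66.6% of the 2574 listed genes tested, so passing it does not set them apart. With p adjusted over the tested genes alone 84.7% passed, the 4 genes among them. Calls with a higher level in the long pool made up 23.1% of the tested genes and calls with a lower level 43.5%. The authors had already selected the listed genes, 4.98% of about 65227 they tested, on a difference among these 6 libraries, and the present test adds no independent evidence. The smallest of the authors' log2 fold changes among listed genes is 1 in size. Small changes are thus missing from every share, rank and median over listed or tested genes given here. The arrangement of a lower repressor with higher promoters of flowering held for FLC, CO and SOC1, and FT went the other way.

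FLC, the repressor, lies on C09 (46366645 to 46371180 in the deposited coordinates, on the Darmor reference). Its level in FPKM, the read count that the authors normalised for gene length and sequencing depth, was 0.47, 0.31 and 0.61 in long replicates 1 to 3 and 2.82, 2.11 and 2.86 in short replicates 1 to 3. The pools did not overlap, and the lowest library of each was its replicate 2. The means were 0.463 ± 0.150 FPKM (SD, n = 3) in the long and 2.60 ± 0.422 FPKM (SD, n = 3) in the short pool. These levels rest on 38 counts from the long pool against 226 from the short pool. The count per library total was 5.73 times as high in the short pool, with a 95% exact interval of 4.05 to 8.31 that covers counting error only. The fitted log2 fold change, long over short, was -2.49 ± 0.35 (SE; edgeR, adjusted p = 0.000444), larger in size than that of 82.9% of tested genes.

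CO, the photoperiod factor that activates FT in Arabidopsis, lies on A10 (13358777 to 13360064). Its level was 1.83, 1.13 and 1.82 FPKM in long replicates 1 to 3 and 0.53, 0.68 and 0.43 FPKM in short replicates 1 to 3. All long libraries stood above all short ones, and long replicate 2 was the lowest of the long pool. The means were 1.59 ± 0.401 FPKM (SD, n = 3) and 0.547 ± 0.126 FPKM (SD, n = 3), from 136 and 50 counts. The count ratio, long over short, was 2.82 (95% exact counting interval 2.03 to 3.99), and the fitted log2 fold change was 1.52 ± 0.36 (SE; edgeR, adjusted p = 0.0278). The call ended without long replicate 1 or 3 and without short replicate 1 or 3, with log2 fold changes of 1.41, 1.42, 1.50 and 1.38 in this order. It also ended with limma-voom (log2 fold change of 1.47).

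FT, the florigen gene, lies on C02_random (996695 to 998788), a sequence not placed on the chromosome, so distances along it may not be physical. Its level was 4.67, 4.58 and 3.89 FPKM in long replicates 1 to 3 and 11.02, 11.22 and 10.36 FPKM in short replicates 1 to 3. The short libraries were all more than 10 FPKM and the long libraries all under 5 FPKM. The means were 4.38 ± 0.427 FPKM (SD, n = 3) and 10.9 ± 0.450 FPKM (SD, n = 3), from 301 and 770 counts, the latter the most of the 4 genes in the short pool. Per library total, the count was 2.47 times as high in the short pool (95% exact counting interval 2.16 to 2.83). The fitted log2 fold change was -1.31 ± 0.21 (SE; edgeR, adjusted p = 0.00110), close to the median of -1.22 over all tested genes. That median is no typical change, since small changes were left out by the selection and 1649 of the 2574 tested genes were lower.

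SOC1, the integrator, lies on A04 (18732428 to 18735897). Its level was 2.14, 2.45 and 2.43 FPKM in long replicates 1 to 3 and 0.91, 1.29 and 1.08 FPKM in short replicates 1 to 3. The pools were separated by a gap wider than the range within either pool. The means were 2.34 ± 0.173 FPKM (SD, n = 3) and 1.09 ± 0.190 FPKM (SD, n = 3), from 309 and 151 counts. The count ratio, long over short, was 2.12 (95% exact counting interval 1.74 to 2.60), and the fitted log2 fold change was 1.09 ± 0.26 (SE; edgeR, adjusted p = 0.0306), the smallest change of the 4 genes. The authors' own log2 fold change of SOC1, 1.02, is close to the smallest size among listed genes. In the 6 fits that each left out 1 library the call held only without short replicate 2 and ended without any of the other libraries, with log2 fold changes of 0.98 to 1.15 in the fits that lost it.

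**Figure D1:**
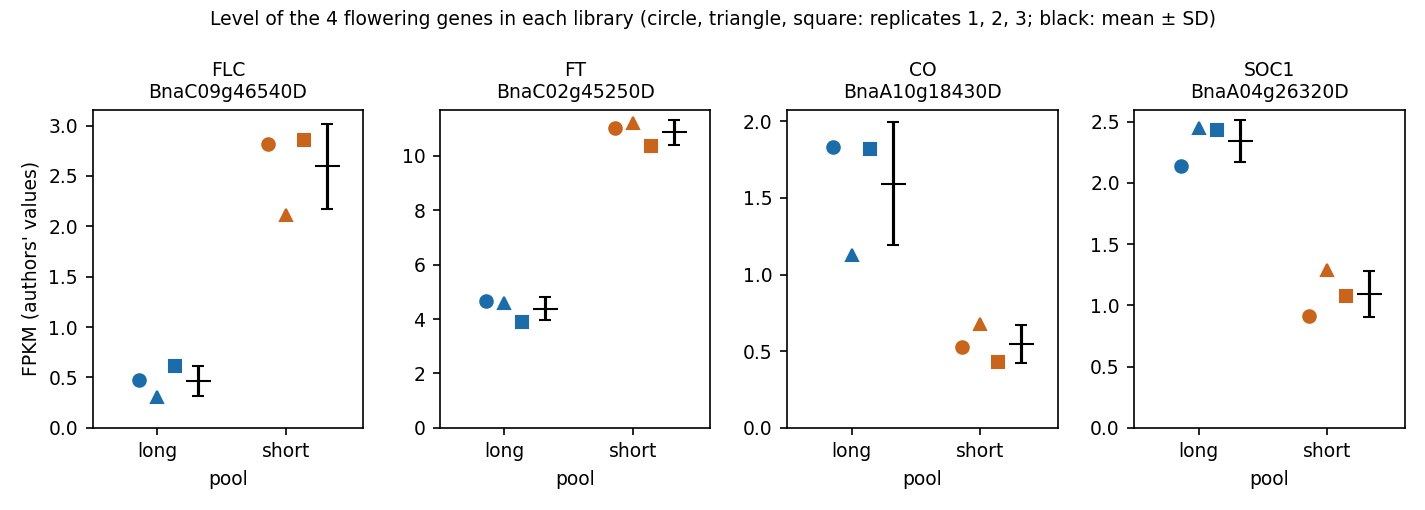
Level of FLC, FT, CO and SOC1 in FPKM (vertical axis from 0, one scale per gene) in the 3 libraries of the long pool (blue) and the 3 of the short pool (orange), with mean and SD in black. In each of the 4 panels the pools are separate: FLC and FT are lower and CO and SOC1 higher in the long pool.

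For each of the 4 genes an exact two-sided permutation test of mean CPM (counts scaled to the recovered library total) gave p = 0.1, the smallest that 3 against 3 libraries allow. Pools that do not overlap are the rule in this table, since 97.4% of tested genes and 95.3% of listed genes show it. The SD between the libraries of a pool lay below the counting SD for some of these genes and above it for others. For FT it was 0.372 CPM in the long pool, where counting alone gives 0.381 CPM, and 0.390 against 0.588 CPM in the short pool. For SOC1 the values were 0.292 against 0.388 CPM in the long and 0.312 against 0.258 CPM in the short pool. For CO they were 0.438 against 0.263 CPM in the long and 0.137 against 0.149 CPM in the short pool. For FLC they were 0.163 against 0.140 CPM in the long and 0.454 against 0.321 CPM in the short pool. Over the listed genes, replicates of a pool differed by more than counting noise.

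The order of the genes by level per length differed between the pools. In the long pool FT was the highest, followed by SOC1, CO and FLC, and the ranges of neighbours in this order did not overlap. In the short pool the order was FT, FLC, SOC1 and CO, again without overlap between neighbours. FLC thus stood last in the long and in the second place in the short libraries.

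Ratios between the genes within a library need no library total, so they do not depend on the scaling between libraries. The ratio of FLC to SOC1 in FPKM was 0.220, 0.127 and 0.251 in the long libraries and 3.10, 1.64 and 2.65 in the short libraries. SOC1 exceeded FLC in every long library and FLC exceeded SOC1 in every short library. The log2 ratio of FLC to CO went from 2.26 ± 0.57 (SD, n = 3) in the short to -1.80 ± 0.20 (SD, n = 3) in the long pool, the widest difference among the 6 pairs. The ratio of FT to CO, its activator in Arabidopsis, was 2.55, 4.05 and 2.14 in the long libraries and 20.8, 16.5 and 24.1 in the short libraries. FT was above CO everywhere, by a far smaller factor in the long pool. For FT over SOC1 the log2 ratio was 0.90 ± 0.22 (SD, n = 3) in the long and 3.33 ± 0.25 (SD, n = 3) in the short pool. For FLC over FT, both lower in the long pool, the log2 ratio was -3.29 ± 0.61 (SD, n = 3) and -2.08 ± 0.29 (SD, n = 3), so FLC differed more than FT did. Of the 6 pairs, CO and SOC1, both higher in the long pool, were the only one whose ratios overlapped between pools, with log2 ratios of -0.59 ± 0.47 (SD, n = 3) in the long and -1.01 ± 0.28 (SD, n = 3) in the short pool. The 4 genes were selected for differing between the pools. For a gene lower in every long library and a gene higher in every long library, the ratio is bound to separate the pools. The share of other pairs of listed genes that separate was not computed.

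**Figure D2:**
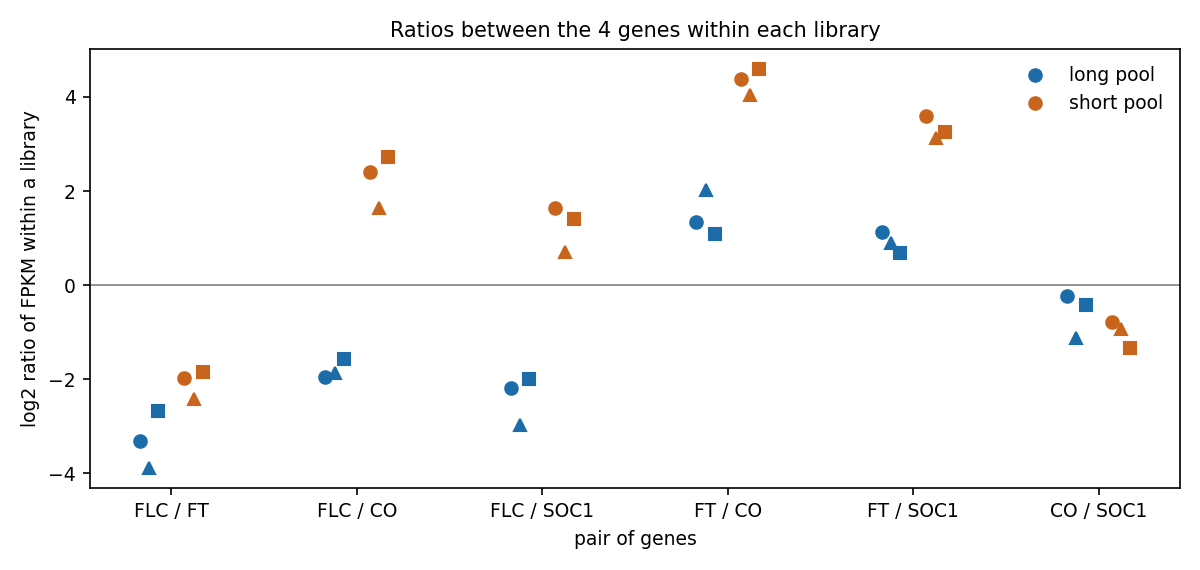
Log2 ratio of FPKM between each pair of the 4 genes within a library (vertical axis), for the 3 long (blue) and 3 short (orange) libraries, with circle, triangle and square for replicates 1, 2 and 3. Both ratios of FLC to CO and to SOC1 lie below 0 in all long and above 0 in all short libraries, whereas the ratios of CO to SOC1 overlap.

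The pools differ in what the listed genes take of the libraries. Recovered library totals were 22892442 to 30259269 reads, and listed genes held 0.897% to 1.19% of them, with all short libraries above all long ones. With these totals as library sizes, 594 tested genes were called higher and 1119 lower in the long pool. TMM over the listed genes, which shifted the median log2 fold change upward by 0.75, gave 916 higher and 340 lower. The split was 915 to 278 under DESeq2 size factors and 850 to 680 under library sizes equal to the column sums. The call of FT ended with TMM (log2 fold change of -0.55, edgeR adjusted p = 0.678) and with DESeq2 size factors (-0.37, adjusted p = 1.0), while over the alternatives of FT the adjusted p ran from 1.28e-05 to 1.0. Both of these scalings rest on genes selected for differing. FLC kept its call under each scaling, and none of the scalings turned the direction of any of the 4 genes.

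**Figure D3:**
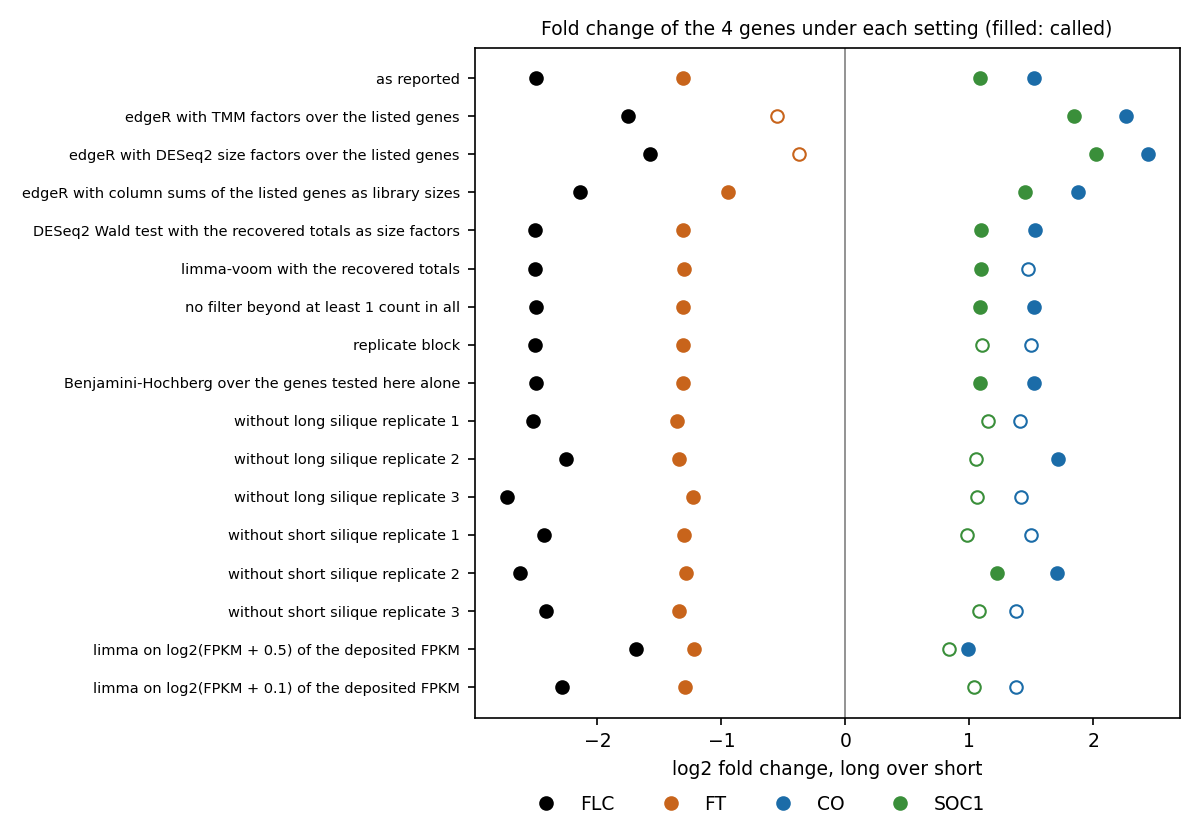
Log2 fold change, long over short (horizontal axis), of FLC (black), FT (orange), CO (blue) and SOC1 (green) as reported and under 16 other settings (rows), filled where the gene was called. FLC is filled throughout, FT is open under TMM and DESeq2 size factors, and CO and SOC1 are open in several fits that leave out 1 library.

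Other genes of the flowering and clock pathways were sought by Arabidopsis locus in 7 lists with 139 loci. The search misses the 1135 of 3248 listed genes to which the table assigns no locus. Of these loci 19 had a listed gene, and the 20 listed genes, the 4 above included, comprised 8 with the higher and 12 with the lower level in the long pool by the authors' deposited table, where 34.4% of all listed genes are higher and 65.6% lower. Of the 17 tested genes 6 were called higher and 8 lower, against 594 and 1119 of 2574 tested genes in all. Without long replicate 1 the called genes of these lists numbered 8 in place of 14, while those of the whole table went from 1713 to 1109. The median log2 fold change of the lists was -1.13, beside -1.22 over all tested genes. These counts include the 4 genes above, which were all called. Apart from them 16 genes were listed, 6 higher and 10 lower, and of the 13 tested 4 were called higher and 6 lower.

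The integrator list gave 5 of 25 loci. Besides FT and SOC1 it held AGL14 (BnaC09g23670D), a MADS-box relative of SOC1 known from Arabidopsis roots, with 1.15 ± 0.388 CPM across long libraries but 0.418 ± 0.070 CPM across short ones (mean ± SD, n = 3 each). AGL14 did not pass the test (fitted change of 1.45 ± 0.41 log2 units, SE; adjusted p = 0.0919 by edgeR). Both relatives of FT in this list were too low to be tested. BFT (BnaA06g21490D), which represses flowering in Arabidopsis, drew 11 counts from the long pool against 37 from the short pool, and MFT (BnaC05g50120D), known for seed germination, had 18 and 3. FD, LFY, AP1, FUL, TFL1, SVP and the SEP genes had no listed gene under their loci. A gene without a locus, BnaA01g21680D, is described as AGL3, another name of SEP4, and drew 67 counts from the long pool against 182 from the short pool.

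Upstream of FLC, the list of 31 loci for FLC activation and vernalization held no listed gene by locus, and FLC was the only locus listed of the 6 in its clade. A listed gene described as VERNALIZATION 2, BnaC04g09420D, is assigned to another locus (AT4G16810), and with 2 counts against 36 it was too low to be tested. The autonomous pathway, which lowers FLC in Arabidopsis, gave 1 of 9 loci. This gene, BnaCnng72250D, was described as FY, a factor of RNA 3' end processing. It had 0, 2 and 2 counts per long library against 30, 18 and 27 per short library and was called lower (edgeR adjusted p = 0.000982). This gene and FLC were therefore both lower in the long pool. The gene described as FY lies on Cnn_random (72654571 to 72655649), a sequence not placed on a chromosome. Whether it spans a whole FY gene was not examined.

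The photoperiod list gave 3 of 36 loci, among them CO. Phytochrome A (BnaC08g42660D), the far-red light receptor that protects CO protein in Arabidopsis, was at 2.72, 1.98 and 2.75 CPM in the long and 12.0, 8.37 and 7.56 CPM in the short libraries. The long pool had the lower level, by a fitted change of -1.91 ± 0.25 log2 units (SE; adjusted p = 0.000242 by edgeR). CDF1 (BnaA06g21870D), a Dof factor that represses CO and FT transcription in Arabidopsis, had a fitted change of -1.34 ± 0.38 log2 units (SE), which missed the threshold (adjusted p = 0.0906 by edgeR).

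The list of FT repressors of the AP2 and RAV families and of SPL genes gave 3 of 13 loci. TEM1 (BnaA09g28670D), which binds FT and represses it in Arabidopsis, was called lower in the long libraries, by a fitted change of -1.03 ± 0.25 log2 units (SE; adjusted p = 0.0360 by edgeR). Its call ended on leaving out any of 4 single libraries (long 1 and 2, short 1 and 3). It also ended in 6 of the 10 other alternatives, among them TMM (log2 fold change of -0.28), DESeq2 size factors, column sums and the replicate block. SPL15 (BnaA07g17550D), an age-dependent promoter of flowering that acts together with SOC1 in Arabidopsis, was at 9.79 ± 0.884 CPM across long libraries but 4.41 ± 0.282 CPM across short ones (mean ± SD, n = 3 each). It was called higher, by 1.15 ± 0.20 log2 units (SE; adjusted p = 0.00287 by edgeR). SMZ (BnaC08g25840D), another FT repressor, had 12 and 36 counts and was not tested.

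The clock list, whose genes time the transcription of CO, gave 6 of 19 loci and 7 genes, 3 called higher and 3 lower. The largest fold was that of COR28 (BnaA01g03080D), a cold- and light-responsive clock repressor, at 4.62, 8.20 and 1.53 CPM in the long and 0.196, 0.137 and 0.516 CPM in the short libraries. The long libraries thus spread widely, whereas their levels of FT and SOC1 were close together. The call of COR28 (fitted change of 4.07 ± 0.72 log2 units, SE; adjusted p = 0.0201 by edgeR) ended without long replicate 1, without short replicate 1 or 2 and with limma-voom (3.96). RVE8 (BnaA01g32200D), a MYB activator of evening genes, was lower (fitted change of -1.13 ± 0.24 log2 units, SE; adjusted p = 0.0136 by edgeR). This call ended without long replicate 1, 2 or 3 or short replicate 3, with each other scaling, such as TMM (-0.38), and with the replicate block. ELF4 (BnaC04g56730D), part of the evening complex, had a fitted change of -1.17 ± 0.44 log2 units (SE), which missed the threshold (adjusted p = 0.458 by edgeR). PRR7 (BnaC02g03470D), a repressor of morning genes, was called higher, at 40.4 ± 6.42 CPM in long against 14.5 ± 3.95 CPM in short libraries (SD, n = 3 each). RVE1 (BnaC02g07210D), a MYB factor, was also called higher, at 4.32 ± 1.45 against 1.46 ± 0.229 CPM. Both copies of PRR5, a relative of PRR7, were called lower, BnaA06g26980D at 16.0 ± 3.20 against 50.1 ± 7.51 CPM and BnaA02g32550D at 3.11 ± 1.58 against 10.1 ± 0.939 CPM. The call of RVE1 ended without long replicate 1 (log2 fold change of 1.25), that of BnaA02g32550D with TMM (-0.95) and with DESeq2 size factors, and that of BnaA06g26980D with DESeq2 size factors (-0.71). The time of day of sampling is not given in the labels, and its part in the levels of the clock genes and of CO was not tested.

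**Figure D4:**
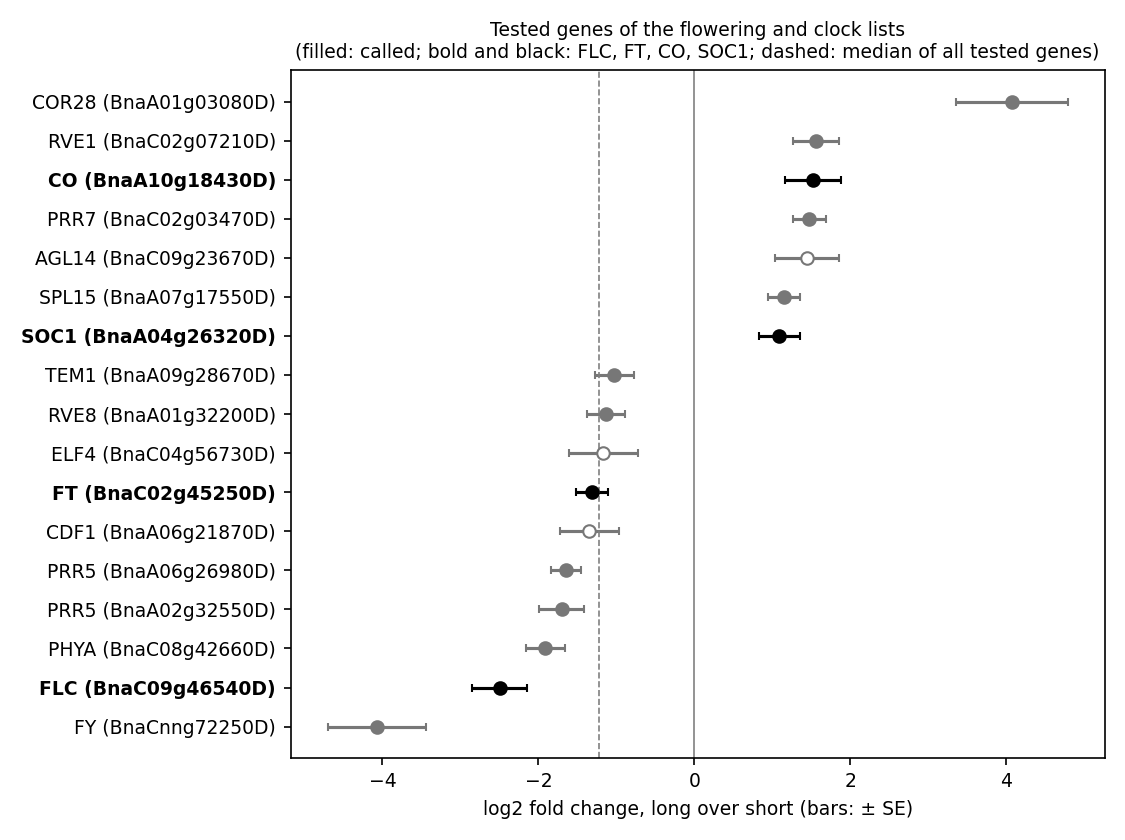
Log2 fold change, long over short (horizontal axis, bars ± SE), of the 17 tested genes of the flowering and clock lists, with FLC, FT, CO and SOC1 in bold, filled points for called genes, and a dashed line at the median of all tested genes. FT lies next to that median of -1.22, FLC lies lower, and CO and SOC1 lie among the genes higher in the long pool.

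Markers of fruit wall, seed and floral organs were counted in the table. Since it holds only genes selected for differing between the pools, their presence or absence there cannot check the tissue. Of 8 fruit wall loci 1 was listed, FIL (BnaC03g25170D), with 0.659 ± 0.141 CPM across long libraries but 1.49 ± 0.615 CPM across short ones (mean ± SD, n = 3 each), which did not pass the test (edgeR adjusted p = 0.236). Of 14 seed loci 0 were listed. Of 9 loci of petal, stamen and pollen the organ identity gene PI (BnaA10g15180D) was listed, with 5, 1 and 1 counts per long library against 11, 9 and 9 per short library. FIL and PI had lower means in the long pool, as did FLC, FT and 65.6% of all listed genes, and the part of tissue makeup in the levels of the 4 genes was not tested. Markers without a listed gene have no values here. In a whole tissue, fewer cells that express a gene and less RNA per cell cannot be told apart.

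The chromosomal surroundings of the 4 genes were described from the listed genes within 500 kb. The directions of these few neighbours are to be read beside the 65.6% of all listed genes that are lower in the long pool and the 66.6% of tested genes that were called. FLC had 4 such neighbours on C09. The 2 on its lower-coordinate side, 348 and 359 kb away, were listed as higher and the 2 on the other side, 246 and 325 kb away, as lower. Of these, BnaC09g47070D, assigned to the Arabidopsis locus AT5G09530, was called lower, with a fitted change of -2.61 ± 0.35 log2 units (SE; adjusted p = 0.000305 by edgeR). BnaC09g47240D, described as an aldehyde dehydrogenase, drew 7 counts from the long pool against 40 from the short pool. Its call ended in all 6 fits without 1 library and in 5 of 9 other alternatives.

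On C02_random, where 13 of 20 listed genes are lower, distances may not be physical. By its deposited coordinates FT had 5 listed neighbours, 4 lower and 1 higher. The nearest, BnaC02g45290D, lies 18.7 kb away, is described as an alkenal reductase and is assigned to AT1G65560, from the same arm of Arabidopsis chromosome 1 as FT (AT1G65480). It was at 2.71 ± 0.672 CPM across long libraries but 6.67 ± 1.42 CPM across short ones (mean ± SD, n = 3 each), a fitted change of -1.30 ± 0.26 log2 units (SE; adjusted p = 0.00794 by edgeR) beside the -1.31 of FT. This call too ended with TMM (-0.55) and DESeq2 size factors, and also with column sums and without long replicate 1 (-1.13) or 2 (-1.31). The nearest listed gene on the other side, BnaC02g44900D, a salicylate and benzoate methyltransferase 294 kb away, was lower by the same test (fitted change of -2.14 ± 0.26 log2 units, SE; adjusted p = 0.000111 by edgeR). The gene that went the other way was BnaC02g44780D, described as the growth-regulating factor GRF7, with a fitted change of 1.30 ± 0.31 log2 units (SE; adjusted p = 0.0254 by edgeR). Its call ended without long replicate 1 or 2, without short replicate 2 or 3 and in 3 of the 10 other alternatives.

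CO had 8 listed neighbours, 4 higher and 4 lower, on A10, which holds 25 higher and 56 lower listed genes. Of the 4 tested neighbours 2 were called, both higher, BnaA10g17540D at 416 kb and the glucuronokinase gene BnaA10g19280D at 402 kb, with 44 against 5 and 78 against 5 counts. SOC1 had 4 listed neighbours on A04, all on its lower-coordinate side, 3 higher and 1 lower. The called one was BnaA04g25510D, a lysine synthesis reductase 413 kb away, at 9.53 ± 0.866 CPM across long libraries but 2.96 ± 0.348 CPM across short ones (mean ± SD, n = 3 each). The nearest, the autophagy gene ATG8e (BnaA04g26080D) at 151 kb, had a fitted change of -1.24 ± 0.39 log2 units (SE), which missed the threshold (adjusted p = 0.153 by edgeR). Each of the 4 genes therefore had listed neighbours of both directions within 500 kb. Called neighbours numbered 0 higher and 2 lower for FLC, 1 and 2 for FT, 2 and 0 for CO and 1 and 0 for SOC1. Of all tested genes 23.1% were called higher and 43.5% lower.

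**Figure D5:**
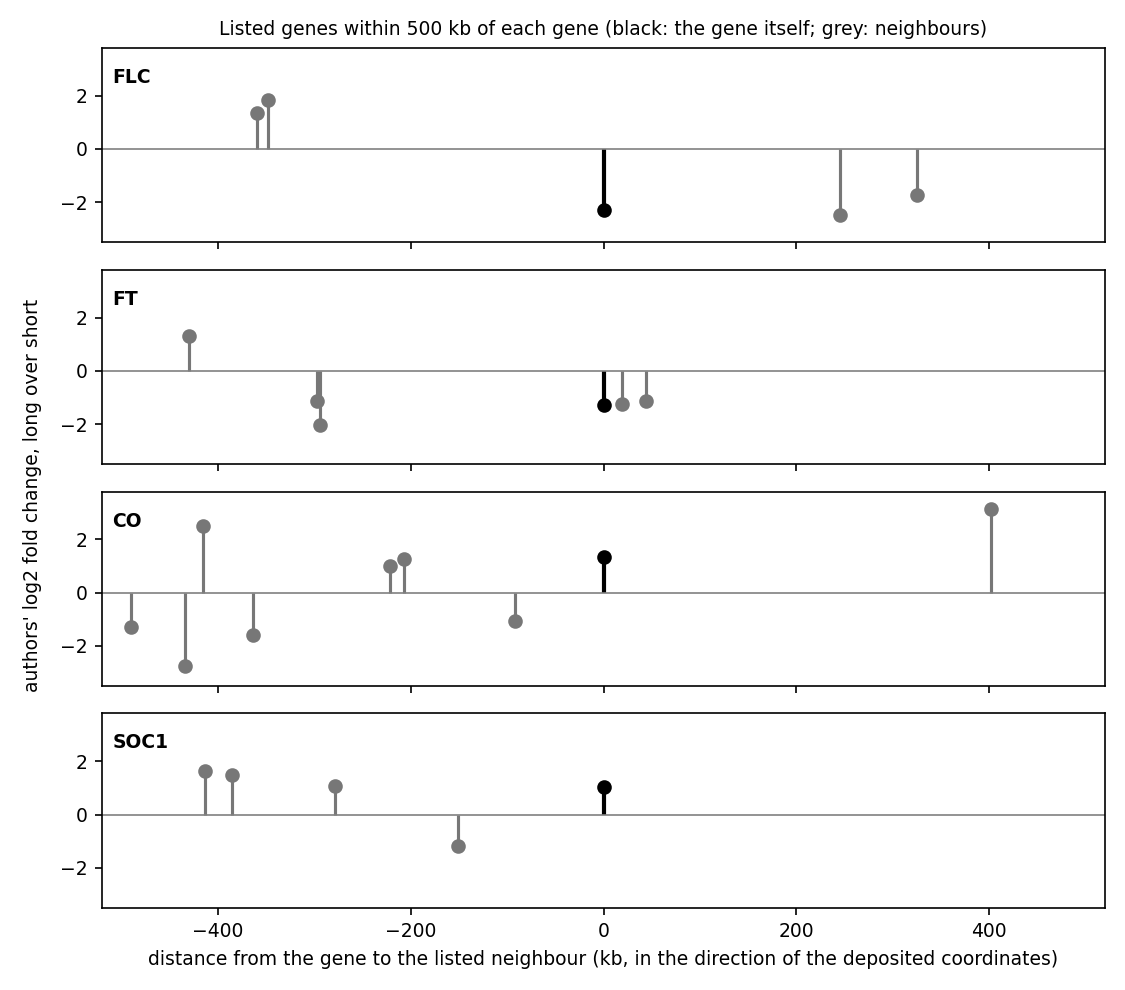
The authors' log2 fold change, long over short (vertical axis), of listed genes within 500 kb of FLC, FT, CO and SOC1 (rows), by distance from the gene in kb (horizontal axis), with the gene itself in black. Around FT 4 of 5 neighbours are lower like FT, and around CO 4 are higher and 4 lower, where 65.6% of all listed genes are lower. FT lies on an unplaced sequence, where distances may not be physical.

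By the Pearson correlation of log2(CPM + 0.5) over the 6 libraries, the named genes most like FLC were a cinnamoyl-CoA reductase gene (BnaA06g37870D, r = 0.999), a mannanase gene (BnaA10g00970D) and a sulfate transporter gene (BnaC04g28500D). Those most like FT were ATHB-12 (BnaA09g55520D, r = 0.999), a hydrolase gene (BnaC07g26010D) and a kinase gene described as HT1 (BnaA06g17770D). Those most like CO were a KRR1 homolog (BnaC02g01110D, r = 0.996), HAT14 (BnaC03g02700D) and bHLH10 (BnaC04g42050D). Those most like SOC1 were a GDSL lipase gene (BnaC07g09690D, r = 0.996), a chloroplast ribosomal protein gene (BnaA08g06730D) and the MADS-box gene AGL12 (BnaA02g15390D). The libraries form 2 pools and the genes were selected for differing between them, so high values are common. Of 1137 genes compared, 41.8% had an r above 0.9 with FLC, 44.9% with FT, 13.5% with CO and 25.7% with SOC1.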

How the data were processed

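The authors deposited 1 table holding, per the file headers, read counts and FPKM per gene and library. Per the series design text, uniquely mapped reads on the Darmor reference were quantified. For the aligner and the release nothing is given in the sources used here. Both edgeR and DESeq2 are named in the submitters' processing notes. The deposited counts are whole numbers. The deposited FPKM are normalised for gene length and sequencing depth, and the length they imply for the 4 genes (865 to 1672 bases) is shorter than the genomic span. The table also holds the p-value, FDR and log2 fold change of the authors' own comparison. The 59362 blank rows were left out.

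Library totals were recovered from counts, FPKM and gene span, as the median of genes within 0.5% of the 95th percentile among those with at least 200 counts and 5 FPKM, and are estimates. How many genes the authors had tested was estimated from p and FDR of the first 20 ranks (64948 to 65672). A count of 3 equals 0.0991 to 0.131 CPM.

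Counts were tested with edgeR 4.0.16 (R 4.3.3, filterByExpr, recovered totals, no TMM factors), with p adjusted over 65227 genes. Alternatives used DESeq2 1.42.0 and limma 3.58.1. The edgeR fit was also run on simulated counts in which a minority of genes changed and p was adjusted over the tested genes alone. This setting differs from the selected genes and the adjustment used here, so no conclusion is drawn from it. Replicates of a pool differed by more than counting noise (chi-square of 4.32 to 7.18 per gene, over genes selected for differing). Separate libraries of the same RNA can differ in this way too, so technical repeats cannot be told from separate plants. The 3 libraries of a pool were treated as separate samples. The members and lists were chosen with earlier results of these data known. The genes named are the members, up to 4 called genes per direction and list, listed neighbours, and the 3 most correlated genes per member with at least 1 CPM. Untested and uncalled list genes were named after their values were seen. The RefSeq gene table (Da-Ae assembly) matched 0 of the 4 member IDs, so no sequences are shown.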

Additional observations from a re-analysis of the deposited data

How the results depend on the processing

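FLC kept its direction and its call in all 16 alternatives, and FT, CO and SOC1 kept their direction in all 16. FT lost its call with TMM (log2 fold change of -0.55) and with DESeq2 size factors (-0.37), whose shift moves every gene. CO lost its call with limma-voom (1.47) and on log2(FPKM + 0.1) (1.38). SOC1 lost it on log2(FPKM + 0.5) (0.84), which left 3 of the 4 genes called, and on log2(FPKM + 0.1) (1.04), which left 2. The cause was not tested. In fits that left out 1 library, with fewer samples, the log2 fold changes were -2.73 to -2.25 for FLC, -1.36 to -1.23 for FT, 1.38 to 1.72 for CO and 0.98 to 1.23 for SOC1, with 2 to 4 of the 4 genes, 8 to 13 genes of the flowering lists and 1109 to 1434 of all tested genes called. Whether the replicate numbers pair the samples is not stated in the labels, and no pairing was assumed. Same-numbered deviations correlated by 0.0411, 0.0104 and 0.00589, and long replicate 2 correlated better with short replicate 3 than with short replicate 2. These values rest on genes selected for differing between the pools, and whether same-numbered libraries shared a batch was not tested. With the replicate block 1228 genes were called, 2 of the 4 genes among them, and CO (1.50) and SOC1 (1.10) missed the threshold. The levels of FLC in the long pool and of CO in the short pool rest on 38 and 50 counts in all.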

Other observations

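Relatives of the 4 genes were also found by their deposited descriptions, a choice made after their values were seen. The MADS-box family, to which FLC and SOC1 belong, had 9 listed genes, 5 higher and 4 lower in the long pool by the authors' deposited table, beside 34.4% higher and 65.6% lower among all listed genes. Of its 8 tested genes 4 were called higher and 1, FLC, lower, and of all tested genes 66.6% were called, 23.1% higher and 43.5% lower. Besides SOC1, the called higher genes were AGL12 (BnaA02g15390D), known from Arabidopsis roots, at 9.62 ± 0.942 CPM across long libraries but 2.62 ± 0.466 CPM across short ones (mean ± SD, n = 3 each), BnaA07g33810D (4.42 ± 0.992 and 0.647 ± 0.080 CPM, SD, n = 3) and BnaUnng02030D, described as the floral repressor AGL18, with 91 and 12 counts. A gene described as AGL3 (BnaA01g21680D) had a fitted change of -1.39 ± 0.40 log2 units (SE; adjusted p = 0.0942 by edgeR).

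Genes described or classed as CONSTANS-like, the family of CO, numbered 5, and of the 4 tested 2 were called higher and 2 lower, which is to be read against the same shares. Those called lower were BnaC05g49330D, described as COL12, at 1.02 ± 0.317 CPM across long libraries but 5.17 ± 1.32 CPM across short ones (mean ± SD, n = 3 each), and BnaC06g25850D, described as COL6 (edgeR adjusted p = 0.0255). The call of BnaC06g25850D ended without long replicate 1 or 2 and without short replicate 1 or 2. It also ended in 5 of the 10 other alternatives, among them TMM (log2 fold change of -0.53). Besides CO, the gene called higher was BnaA01g36590D (3.53 ± 0.275 and 1.36 ± 0.265 CPM, SD, n = 3), whose call ended without long replicate 2.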
